A study of Mus musculus with 7 samples.

Results

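The genes described here are 51 genes of mitosis, taken as a list of names: cyclins and kinases of mitotic entry and exit, kinetochore and checkpoint genes, the chromosomal passenger complex, spindle proteins and kinesins, condensin and other chromosome proteins, and genes of cohesion and cytokinesis. The names were chosen with earlier results of these data known. A member was measured where a probe set of the array was annotated to that gene alone, and where a gene had several, the one with the highest mean was used. This gave 50 of the 51 genes, out of 19938 genes in all. Ccnb1, which encodes cyclin B1, had no such probe set and was not analysed here.

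They were measured in hematopoietic stem cells (HSCs) of female C57BL/6 mice with 2 genotypes. Cebpa flox/flox;Mx1Cre mice (Cebpa Δ/Δ after deletion, 4 arrays) carry loxP-flanked alleles of Cebpa, the gene of the transcription factor C/EBPα, together with a Cre recombinase under the interferon-responsive Mx1 promoter. Cebpa flox/flox mice (Cebpa fl/fl, 3 arrays) carry the same alleles without Cre. Both genotypes received the interferon inducer pIC and were analysed at day 18, so exposure to it is shared, and the controls lack the Cre protein as well as the deletion. Mx1Cre is active in many interferon-responsive cells and not in HSCs alone. The sort kept lineage-negative, Sca1+, c-Kit+ bone marrow cells that were CD150+ and CD48-. The series counts as many mice as arrays, so p-values measure the spread between single preparations of each genotype. The labels number the arrays within each genotype, and they are called Δ/Δ 1 to 4 and fl/fl 1 to 3.

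Across the whole table, array medians lay between 46.2 and 50.4 intensity units, mean correlations with the other arrays lay between 0.979 and 0.985, and 0 pairs of arrays were identical. The median gene had a log2 level of 5.86, and all 50 mitosis genes lay above it. Cebpa itself measured 5.11, 5.24, 5.27 and 5.27 on the log2 scale in Δ/Δ 1 to 4, against 5.54, 5.75 and 5.63 in fl/fl 1 to 3, with no overlap (log2 fold change -0.41, SE 0.07, exact two-sided permutation p = 0.0286, adjusted p = 0.337). These levels were below the median gene in both genotypes.

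Mitosis separates the copied chromosomes into daughter cells. Cyclin-dependent kinase 1 with its cyclins starts it, condensin compacts the chromosomes, kinetochores built on the centromeric histone CENP-A couple them to spindle microtubules, and the spindle checkpoint holds back the anaphase-promoting complex until all are attached. Most of these genes are transcribed together late in the cell cycle and are kept low in resting cells by the DREAM complex, which with its MuvB core binds the cell cycle genes homology region (CHR), often beside CCAAT boxes bound by NF-Y. Adult HSCs are known for dividing rarely.

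Promoter sequence was available in RefSeq (build GRCm38.p6, 250 bases before to 50 after each annotated start) for 43 of the 51 genes, in 45 windows. Aurkb, Ccna2, Foxm1, Incenp, Kif20a, Smc4, Spc24 and Tpx2 had no window. The promoters of 5 genes are shown from the 100 bases before to the 50 after the start, because these elements are typical of late cell cycle genes. They belong to the gene with the smallest p in each of 5 roles among genes with a CHR. Capitals mark CHR letters (TTTGAA) and the CCAAT box, which reads ATTGG on the other strand.
Cenpa: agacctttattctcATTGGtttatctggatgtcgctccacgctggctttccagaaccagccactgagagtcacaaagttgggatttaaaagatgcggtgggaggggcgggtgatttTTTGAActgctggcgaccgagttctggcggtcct
Kif4: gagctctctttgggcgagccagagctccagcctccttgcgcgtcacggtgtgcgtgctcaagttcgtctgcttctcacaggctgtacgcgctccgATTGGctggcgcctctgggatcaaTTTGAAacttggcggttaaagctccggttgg
Espl1: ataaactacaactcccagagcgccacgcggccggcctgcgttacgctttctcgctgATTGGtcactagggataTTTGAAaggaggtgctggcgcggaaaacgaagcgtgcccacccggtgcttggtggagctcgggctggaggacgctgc
Hmmr: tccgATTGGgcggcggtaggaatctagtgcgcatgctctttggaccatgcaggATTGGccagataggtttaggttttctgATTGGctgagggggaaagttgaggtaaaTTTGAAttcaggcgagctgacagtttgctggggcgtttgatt
Cdca8: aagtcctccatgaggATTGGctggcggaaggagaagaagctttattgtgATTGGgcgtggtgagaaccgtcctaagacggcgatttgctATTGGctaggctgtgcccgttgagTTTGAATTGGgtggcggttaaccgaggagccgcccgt

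The Cenpa sequence lies at chr5:30666786-30666935 on the plus strand, that of Kif4 at chrX:100625965-100626114 (plus), that of Espl1 at chr15:102296193-102296342 (plus), that of Hmmr at chr11:40733388-40733537 (minus) and that of Cdca8 at chr4:124936868-124937017 (minus). The CHR begins at position 17 in Cenpa, 20 in Kif4, 9 in Hmmr and 14 in Cdca8, counted from 1 at the annotated start. In Espl1 it begins at position -27, before the start. Hmmr and Cdca8 carry several CCAAT boxes here, and in Cdca8 the last one overlaps the CHR.

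Of the 45 windows, 36 (80.0%, Wilson 95% interval 66.2 to 89.1) held a CHR, spelled TTTGAA or TTCGAA and searched on both strands, against 19.2% of all 32851 windows of the same length. CCAAT was found in 32 (71.1%, 56.6 to 82.3), against 37.4% of all windows. An E2F motif spelled TTTGGCGC, TTTCCCGC or TTTCGCGC was found in 5 (11.1%), against 1.84%. The C/EBP motif TTGCNNAA was found in 0 of 45 (interval up to 7.87%), against 10.8% of all windows. These are matches of letters and not sites of binding, and intervals cover counting error only. Among the 42 measured genes with a window, the 34 with a CHR had a median log2 fold change of 0.48 and the 8 without one of 0.44. For CCAAT it was 0.46 in the 29 genes with it and 0.54 in the 13 without. For E2F it was 0.41 in the 5 genes with it and 0.54 in the 37 without. These differences were not tested. Counts for the CHR depended on the stretch searched, because many matches lay just after the start. In the 100 bases before the start alone, 26.7% of the windows held a CHR, against 6.13% of all windows.

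**Figure D1:**
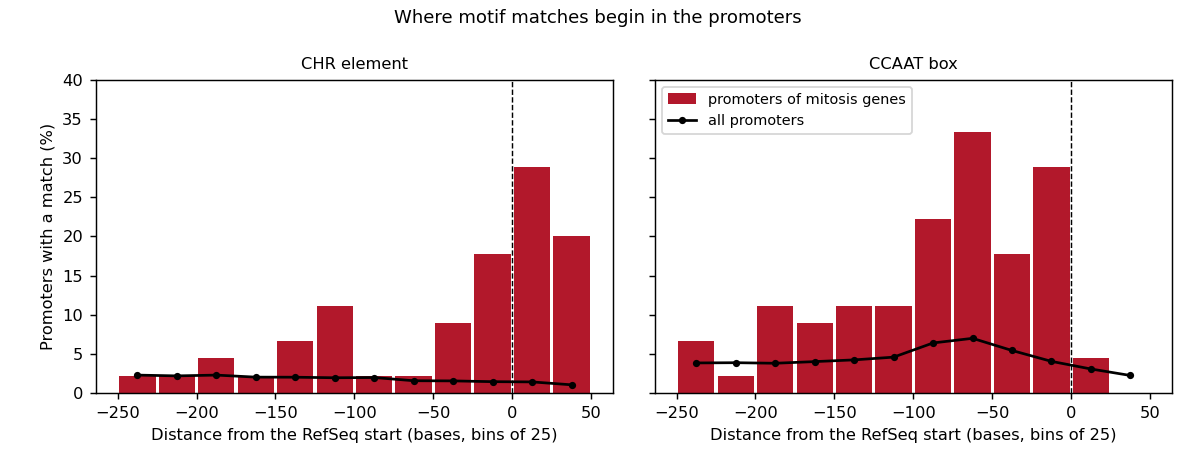
Share of promoters (vertical axis, percent) in which a CHR (left) or a CCAAT box (right) begins, by distance from the RefSeq start in bins of 25 bases; bars are the 45 promoters of mitosis genes and the line is all 32851 promoters. The CHR peaks in the first 25 bases after the start (28.9%, against 1.43% of all promoters) and CCAAT between 75 and 51 bases before it (33.3%, against 6.99%).

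The 50 measured mitosis genes tended to be higher in HSCs of Cebpa Δ/Δ mice. Because they were chosen with earlier results known, the shares below describe these genes and are no test of mitosis genes at large. The median log2 fold change of the 50 genes, Cebpa Δ/Δ minus Cebpa fl/fl, was 0.46, against 0.00 over all genes, and it was above 0 for 47 of them (94%), against 49.7% of all genes. At the thresholds of the study, an unadjusted p under 0.05 (limma) and a change over 1.5-fold, 13 were higher (26.0%), against 1.57% of all genes, and 0 were lower, against 0.617%. At an unadjusted p under 0.05 alone, 25 of the 50 were higher, against 4.40% of all genes, and 0 were lower, against 3.08%. In 12 genes (24.0%) every Δ/Δ array lay above every fl/fl array, against 3.51% of all genes, and the reverse was seen in 0, against 2.46%. Among the 9969 genes above the median level, the same shares for higher genes were 2.36%, 6.31% and 4.89%. No gene on the arrays passed an adjusted p of 0.05 (0 of 19938, 0.0%), and the mitosis genes had adjusted p-values between 0.393 (Birc5) and 0.977 (Mad2l1). Log2 fold changes of single genes ran from -0.07 to 1.05. In such bulk preparations a different number of dividing cells and a different amount of these RNAs per cell cannot be told apart.

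**Figure D2:**
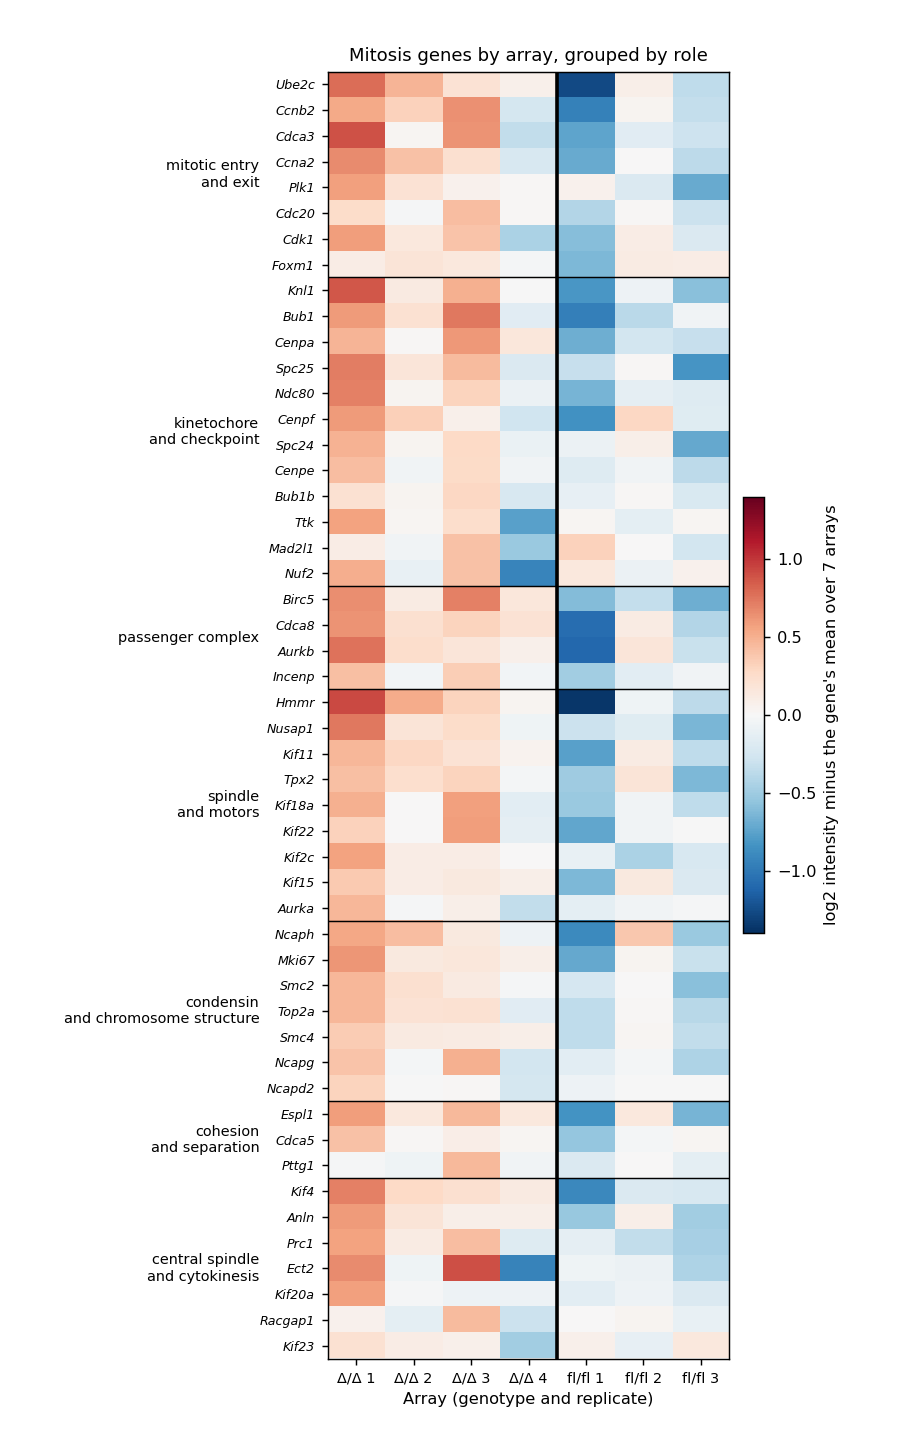
log2 intensity of each of the 50 mitosis genes (rows, grouped by role) in each array (columns, Cebpa Δ/Δ then Cebpa fl/fl), as the difference from that gene's mean over the 7 arrays (colour scale, red above and blue below the mean). Δ/Δ 1 is the highest array for 36 genes and fl/fl 1 the lowest for 28, while Δ/Δ 4 and fl/fl 2 are pale for most genes.

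Levels of single genes are given on the log2 intensity scale, and a gene passed where its unadjusted limma p was under 0.05.

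Regulators of mitotic entry and exit had a median log2 fold change of 0.56. Of 8 measured genes 3 were higher at the thresholds of the study (Ube2c, Ccnb2 and Ccna2), 1 more (Cdc20) at an unadjusted p under 0.05, and 0 were lower. Ube2c, the ubiquitin-conjugating enzyme of the anaphase-promoting complex, measured 9.73, 9.42, 9.15 and 9.02 in Δ/Δ 1 to 4, against 7.68, 9.03 and 8.59 in fl/fl 1 to 3, a log2 fold change of 0.90 (SE 0.34, limma p = 0.0339, exact permutation p = 0.0571). Ccnb2, which encodes cyclin B2, measured 9.60, 9.39, 9.71 and 8.82 in Δ/Δ 1 to 4, against 8.12, 9.11 and 8.73 in fl/fl 1 to 3, a log2 fold change of 0.73 (SE 0.30, limma p = 0.0476, exact permutation p = 0.0857). Ccna2, which encodes cyclin A2, measured 9.95, 9.70, 9.51 and 9.07 in Δ/Δ 1 to 4, against 8.58, 9.30 and 8.92 in fl/fl 1 to 3, a log2 fold change of 0.63 (SE 0.25, limma p = 0.0431, exact permutation p = 0.114). In all 3 genes fl/fl 1 was the lowest array and Δ/Δ 4 lay below fl/fl 2. Leaving out fl/fl 1 gave a log2 fold change of 0.52 for Ube2c and 0.46 for Ccnb2. Cdc20, the activator of the anaphase-promoting complex that the checkpoint inhibits, measured 7.95, 7.68, 8.12 and 7.71 in Δ/Δ 1 to 4, against 7.28, 7.71 and 7.39 in fl/fl 1 to 3, a log2 fold change of 0.41 (SE 0.15, limma p = 0.0319, exact permutation p = 0.114). Plk1, a kinase of centrosome maturation and spindle assembly, measured 8.49, 8.12, 7.97 and 7.93 in Δ/Δ 1 to 4, against 7.97, 7.71 and 7.21 in fl/fl 1 to 3, a log2 fold change of 0.50 (SE 0.21, limma p = 0.0558, exact permutation p = 0.0857). Plk1 did not pass, in it fl/fl 1 stood level with Δ/Δ 3 at 7.97, and without fl/fl 3, its lowest array, the log2 fold change was 0.29. Cdk1, the kinase that drives entry, measured 9.07, 8.63, 8.88 and 8.04 in Δ/Δ 1 to 4, against 7.88, 8.59 and 8.28 in fl/fl 1 to 3, a log2 fold change of 0.41 (SE 0.28, limma p = 0.192, exact permutation p = 0.229). Foxm1, a transcription factor of late cell cycle genes, measured 7.62, 7.70, 7.66 and 7.49 in Δ/Δ 1 to 4, against 6.89, 7.63 and 7.62 in fl/fl 1 to 3, a log2 fold change of 0.24 (SE 0.19, limma p = 0.258, exact permutation p = 0.314). Neither passed, the arrays overlapped, and in Foxm1 only fl/fl 1 stood apart, at 6.89 among values of 7.49 to 7.70. Without that array the log2 fold change was -0.01 for Foxm1 and 0.22 for Cdk1, which was at 0.27 without Δ/Δ 1 and 0.61 without Δ/Δ 4. Cdca3, a trigger of mitotic entry, had 0.70 (SE 0.32, exact permutation p = 0.171).

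Kinetochore and checkpoint genes differed among themselves. Of 12 measured genes 4 were higher at the thresholds of the study (Cenpa, Knl1, Bub1 and Spc25) and 1 more (Ndc80) at an unadjusted p under 0.05, with a median log2 fold change of 0.42. Cenpa, the histone that marks the centromere, measured 8.71, 8.25, 8.84 and 8.39 in Δ/Δ 1 to 4, against 7.55, 7.97 and 7.91 in fl/fl 1 to 3, a log2 fold change of 0.73 (SE 0.18, limma p = 0.00498, exact permutation p = 0.0286). All 4 Δ/Δ arrays lay above all 3 fl/fl arrays, and the permutation p is the smallest that 35 splits of the 7 arrays allow. Knl1, the scaffold that recruits checkpoint proteins to the kinetochore, measured 9.27, 8.53, 8.90 and 8.40 in Δ/Δ 1 to 4, against 7.59, 8.33 and 7.82 in fl/fl 1 to 3, a log2 fold change of 0.86 (SE 0.26, limma p = 0.0148, exact permutation p = 0.0571). Bub1, the checkpoint kinase that binds it, measured 7.96, 7.58, 8.10 and 7.20 in Δ/Δ 1 to 4, against 6.40, 6.98 and 7.31 in fl/fl 1 to 3, a log2 fold change of 0.81 (SE 0.29, limma p = 0.0285, exact permutation p = 0.0857). The Knl1 arrays did not overlap, with Δ/Δ 4 (8.40) only just above fl/fl 2 (8.33), and in Bub1 fl/fl 3 lay above Δ/Δ 4. Ndc80, which binds microtubules, measured 8.16, 7.49, 7.77 and 7.37 in Δ/Δ 1 to 4, against 6.80, 7.33 and 7.27 in fl/fl 1 to 3, a log2 fold change of 0.57 (SE 0.22, limma p = 0.0398, exact permutation p = 0.0571). Spc25, a subunit of the same complex, measured 7.24, 6.69, 6.97 and 6.32 in Δ/Δ 1 to 4, against 6.20, 6.54 and 5.70 in fl/fl 1 to 3, a log2 fold change of 0.66 (SE 0.27, limma p = 0.0495, exact permutation p = 0.114). Ndc80 arrays did not overlap, while the log2 fold change of Spc25 was 0.43 without fl/fl 3, its lowest array. The other subunits of that complex had log2 fold changes of 0.42 (Spc24, SE 0.23, and 0.18 without fl/fl 3) and -0.07 (Nuf2, SE 0.34). Nuf2 measured 8.37, 7.76, 8.27 and 6.94 in Δ/Δ 1 to 4, against 8.01, 7.78 and 7.92 in fl/fl 1 to 3, so Δ/Δ 4 was its lowest array by far. The checkpoint genes Mad2l1 (-0.04, SE 0.24), Ttk (0.05, SE 0.30) and Bub1b (0.19, SE 0.14) did not pass, nor did the kinetochore genes Cenpe (0.35, SE 0.15), a motor, and Cenpf (0.42, SE 0.31). Without fl/fl 1 Cenpf was at 0.11 and without fl/fl 2 at 0.69, and Bub1b was at 0.12 without Δ/Δ 3 and 0.29 without Δ/Δ 4.

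The chromosomal passenger complex corrects wrong attachments and then moves to the spindle midzone, and its 4 genes had a median log2 fold change of 0.76. Without fl/fl 1 this median was 0.43, level with that of spindle proteins and motors (0.43) and close to that of mitotic entry and exit (0.45). Birc5 and Cdca8 were higher at the thresholds of the study, and 3 of the 4 genes had arrays that did not overlap. Birc5, which encodes survivin, measured 9.43, 8.89, 9.48 and 8.94 in Δ/Δ 1 to 4, against 8.17, 8.45 and 8.09 in fl/fl 1 to 3, a log2 fold change of 0.95 (SE 0.19, limma p = 0.00182, exact permutation p = 0.0286, adjusted p = 0.393). This was the smallest p of the mitosis genes and a 1.93-fold difference, and the lowest Δ/Δ array (8.89) lay well above the highest fl/fl array (8.45). Cdca8, which encodes borealin, measured 8.70, 8.30, 8.38 and 8.27 in Δ/Δ 1 to 4, against 7.01, 8.19 and 7.66 in fl/fl 1 to 3, a log2 fold change of 0.79 (SE 0.27, limma p = 0.0255, exact permutation p = 0.0286). Incenp, the scaffold of the complex, measured 8.26, 7.80, 8.18 and 7.80 in Δ/Δ 1 to 4, against 7.35, 7.69 and 7.79 in fl/fl 1 to 3, a log2 fold change of 0.40 (SE 0.17, limma p = 0.0501, exact permutation p = 0.114). In Cdca8 the separation was narrow, between 8.27 in Δ/Δ 4 and 8.19 in fl/fl 2, and without fl/fl 1 its log2 fold change was 0.48. Incenp had arrays apart by 7.80 in Δ/Δ 2 and Δ/Δ 4 against 7.79 in fl/fl 3, and its p was just over 0.05. Aurkb, the kinase of the complex, had 0.73 (SE 0.32, exact permutation p = 0.0571), with fl/fl 2 (8.22) level with Δ/Δ 3 (8.22), and was at 0.38 without fl/fl 1.

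Spindle proteins and motors contained the mitosis gene with the highest log2 fold change, Hmmr. Of 9 measured genes 2 were higher at the thresholds of the study (Hmmr and Nusap1), 4 more (Kif11, Tpx2, Kif18a and Kif2c) at an unadjusted p under 0.05, and the median was 0.54. Hmmr, a spindle protein and hyaluronan receptor, measured 8.34, 7.93, 7.72 and 7.45 in Δ/Δ 1 to 4, against 6.05, 7.35 and 7.04 in fl/fl 1 to 3, a log2 fold change of 1.05 (SE 0.35, limma p = 0.0222, exact permutation p = 0.0286). Nusap1, which stabilises microtubules near chromosomes, measured 9.09, 8.54, 8.61 and 8.29 in Δ/Δ 1 to 4, against 8.05, 8.19 and 7.71 in fl/fl 1 to 3, a log2 fold change of 0.65 (SE 0.21, limma p = 0.0174, exact permutation p = 0.0571). Hmmr was 2.07-fold higher, with arrays that did not overlap in either gene. The lowest Hmmr value was that of fl/fl 1 (6.05), and the log2 fold change was 0.67 without that array, when Birc5 stood higher (0.92). Kif11, the motor that pushes spindle poles apart, measured 8.99, 8.82, 8.73 and 8.58 in Δ/Δ 1 to 4, against 7.77, 8.65 and 8.17 in fl/fl 1 to 3, a log2 fold change of 0.58 (SE 0.21, limma p = 0.0298, exact permutation p = 0.0571). Tpx2, which activates Aurora A on the spindle, measured 8.14, 7.95, 8.03 and 7.69 in Δ/Δ 1 to 4, against 7.22, 7.90 and 7.09 in fl/fl 1 to 3, a log2 fold change of 0.55 (SE 0.21, limma p = 0.0397, exact permutation p = 0.0857). In both, fl/fl 2 lay above Δ/Δ 4, and without fl/fl 1 Kif11 was at 0.37. Kif18a, a motor that limits chromosome movement, measured 6.99, 6.49, 7.06 and 6.34 in Δ/Δ 1 to 4, against 5.97, 6.44 and 6.13 in fl/fl 1 to 3, a log2 fold change of 0.54 (SE 0.22, limma p = 0.0438, exact permutation p = 0.114). Kif2c, a kinesin that removes tubulin at centromeres, measured 7.69, 7.23, 7.23 and 7.13 in Δ/Δ 1 to 4, against 7.03, 6.69 and 6.91 in fl/fl 1 to 3, a log2 fold change of 0.44 (SE 0.15, limma p = 0.0259, exact permutation p = 0.0571). Only Kif2c had arrays apart among these 4 genes. The kinesin genes Kif22 (0.45, SE 0.24) and Kif15 (0.41, SE 0.18) did not pass and were at 0.22 and 0.21 without fl/fl 1, and Aurka, the Aurora kinase of the spindle poles, had 0.11 (SE 0.18).

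**Figure D3:**
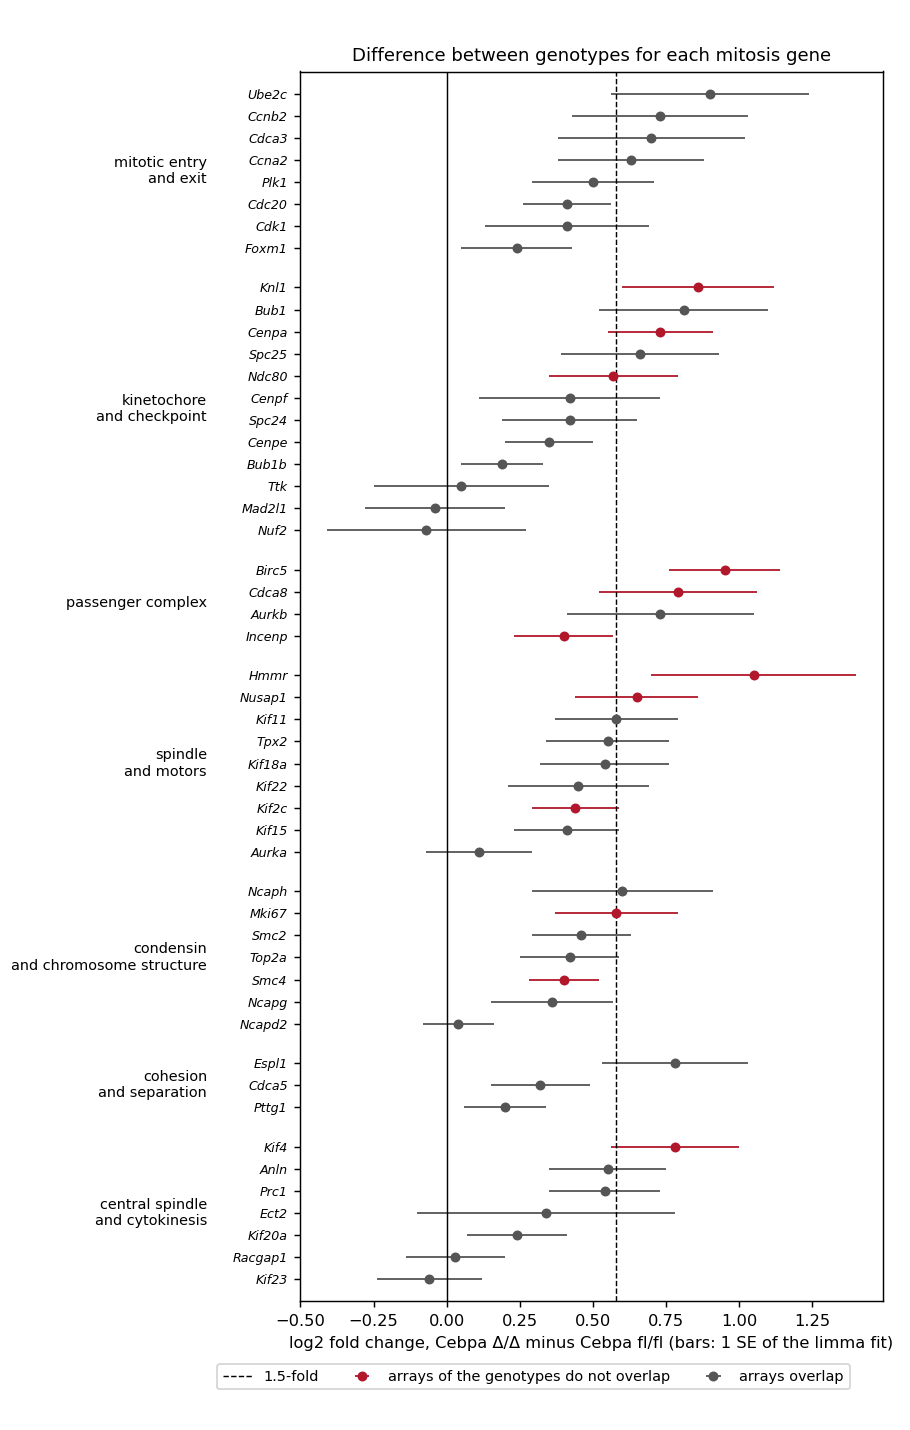
log2 fold change (horizontal axis, Cebpa Δ/Δ minus Cebpa fl/fl) of each of the 50 mitosis genes grouped by role; points are limma estimates from 4 and 3 arrays, bars are 1 SE either way, red marks genes whose arrays do not overlap between genotypes and the dashed line is a 1.5-fold change. Estimates run from -0.07 (Nuf2) to 1.05 (Hmmr), and 47 of the 50 lie right of 0.

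Condensin and chromosome structure genes were higher by less than 1.5-fold where they passed. Of 7 measured genes 0 met the thresholds of the study and 4 (Smc4, Mki67, Smc2 and Top2a) an unadjusted p under 0.05, with a median log2 fold change of 0.42 (0.40 over the 5 condensin subunits). Smc4, an ATPase subunit of condensin, measured 9.59, 9.36, 9.35 and 9.32 in Δ/Δ 1 to 4, against 8.88, 9.26 and 8.89 in fl/fl 1 to 3, a log2 fold change of 0.40 (SE 0.12, limma p = 0.0136, exact permutation p = 0.0286). Smc2, its partner, measured 8.73, 8.48, 8.39 and 8.24 in Δ/Δ 1 to 4, against 8.03, 8.27 and 7.68 in fl/fl 1 to 3, a log2 fold change of 0.46 (SE 0.17, limma p = 0.0312, exact permutation p = 0.0857). The arrays of Smc4 did not overlap and those of Smc2 did, by 8.24 in Δ/Δ 4 and 8.27 in fl/fl 2, and without fl/fl 3 Smc2 was at 0.31. Of the other condensin subunits Ncaph had 0.60 (SE 0.31, with 0.33 without fl/fl 1 and 0.96 without fl/fl 2), Ncapg 0.36 (SE 0.21) and Ncapd2 0.04 (SE 0.12), and none of them passed. Mki67, the coat protein of mitotic chromosomes and a marker of cycling cells, measured 9.90, 9.42, 9.44 and 9.36 in Δ/Δ 1 to 4, against 8.56, 9.32 and 8.97 in fl/fl 1 to 3, a log2 fold change of 0.58 (SE 0.21, limma p = 0.03, exact permutation p = 0.0286). Top2a, the topoisomerase that untangles sister chromatids, measured 9.54, 9.28, 9.29 and 8.91 in Δ/Δ 1 to 4, against 8.72, 9.09 and 8.68 in fl/fl 1 to 3, a log2 fold change of 0.42 (SE 0.17, limma p = 0.0445, exact permutation p = 0.0857). Mki67 was just under 1.5-fold, and its arrays did not overlap, with 9.36 in Δ/Δ 4 and 9.32 in fl/fl 2 as the nearest values. Top2a had a second, dimmer probe set with a difference of 0.22.

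Cohesion and chromosome separation were covered by 3 genes, of which 1 passed the thresholds of the study. Their median log2 fold change was 0.32, and 0.15 without fl/fl 1. Espl1, which encodes separase, the protease that cuts cohesin, measured 6.72, 6.28, 6.59 and 6.28 in Δ/Δ 1 to 4, against 5.30, 6.28 and 5.48 in fl/fl 1 to 3, a log2 fold change of 0.78 (SE 0.25, limma p = 0.0193, exact permutation p = 0.0857). Cdca5, which encodes sororin, a protector of cohesin, measured 8.13, 7.73, 7.81 and 7.74 in Δ/Δ 1 to 4, against 7.17, 7.69 and 7.74 in fl/fl 1 to 3, a log2 fold change of 0.32 (SE 0.17, limma p = 0.109, exact permutation p = 0.0857). In Espl1 fl/fl 2 equalled Δ/Δ 2 and Δ/Δ 4 at 6.28. Cdca5 did not pass, only fl/fl 1 was low in it, and without that array it was at 0.14. Pttg1, securin, the inhibitor of separase, had 0.20 (SE 0.14), and 0.07 without Δ/Δ 3.

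Central spindle and cytokinesis genes were divided, with some log2 fold changes near 0. Of 7 measured genes Kif4 was higher at the thresholds of the study and Prc1 and Anln at an unadjusted p under 0.05, with a median of 0.34, which was 0.16 without Δ/Δ 1, 0.21 without fl/fl 3 and 0.60 without Δ/Δ 4. Kif4, a chromosome-bound kinesin that also organises the midzone, measured 7.68, 7.26, 7.20 and 7.10 in Δ/Δ 1 to 4, against 6.07, 6.77 and 6.75 in fl/fl 1 to 3, a log2 fold change of 0.78 (SE 0.22, limma p = 0.00994, exact permutation p = 0.0286, adjusted p = 0.583). Prc1, the microtubule bundler that recruits it, measured 8.63, 8.18, 8.49 and 7.88 in Δ/Δ 1 to 4, against 7.94, 7.72 and 7.60 in fl/fl 1 to 3, a log2 fold change of 0.54 (SE 0.19, limma p = 0.027, exact permutation p = 0.0857). Kif4 arrays did not overlap, with 7.10 as the lowest Δ/Δ and 6.77 as the highest fl/fl value, while Δ/Δ 4 lay below fl/fl 1 in Prc1. Anln, which encodes the contractile ring protein anillin, measured 8.01, 7.60, 7.50 and 7.50 in Δ/Δ 1 to 4, against 6.89, 7.50 and 6.93 in fl/fl 1 to 3, a log2 fold change of 0.55 (SE 0.20, limma p = 0.0291, exact permutation p = 0.0857). Both subunits of centralspindlin were near 0, Kif23 at -0.06 (SE 0.18) and Racgap1 at 0.03 (SE 0.17). Ect2, the exchange factor that centralspindlin recruits, had 0.34 with the largest error of the mitosis genes (SE 0.44), its Δ/Δ arrays lying between 5.97 (Δ/Δ 4) and 7.81 (Δ/Δ 3). Ect2 was at 0.08 without Δ/Δ 3, 0.16 without Δ/Δ 1, 0.21 without fl/fl 3 and 0.70 without Δ/Δ 4. Kif20a, a midzone kinesin, had 0.24 (SE 0.17), and 0.09 without Δ/Δ 1.

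The arrays of one genotype differed, and in the same way in most mitosis genes. Δ/Δ 1 lay above all fl/fl arrays in 47 of the 50 genes and Δ/Δ 3 in 44, against 34 for Δ/Δ 2 and 13 for Δ/Δ 4, and Δ/Δ 4 was the lowest of its genotype in 40. In the other direction fl/fl 1 lay below all Δ/Δ arrays in 37 genes, fl/fl 3 in 34 and fl/fl 2 in 16, and fl/fl 2 was the highest of its genotype in 37. A single array can lie beyond the other genotype in unchanged genes too, and shares over all genes are not given for these counts. A score per array, the mean over the genes of the log2 value minus the gene's 7-array mean, was 0.51, 0.12, 0.32 and -0.13 in Δ/Δ 1 to 4, against -0.48, -0.03 and -0.31 in fl/fl 1 to 3. By this score Δ/Δ 4 lay below fl/fl 2, so the genotypes overlapped. With genotype means removed, each mitosis gene was set against the mean of the other mitosis genes over the 7 arrays, which share array and normalization. The median correlation was 0.79 (0.29 for Plk1 to 0.98) and 46 genes (92.0%) were above 0.5, against a median of -0.06 and 14.5% for the 19788 other genes with a spread within genotypes. Besides Plk1, the lowest were Kif2c (0.33), Pttg1 (0.42) and Mad2l1 (0.43).

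The number of genes that passed depended on single arrays. Of the 25 genes at an unadjusted p under 0.05, 6 kept it without fl/fl 1, 5 without fl/fl 3, 7 without Δ/Δ 1, 10 without Δ/Δ 3, 15 without Δ/Δ 2, 22 without fl/fl 2 and 25 without Δ/Δ 4. Cenpa, Birc5 and Kif4 kept it whichever array was left out, with limma p-values of at most 0.0207, 0.00996 and 0.0236 and lowest log2 fold changes of 0.60, 0.85 and 0.55. The other 22 lost it without at least 1 array, and leaving out an array also lowers the power of the fit. All 25 kept a log2 fold change above 0 each time. At the thresholds of the study the count of 13 was 5 without fl/fl 1, 5 without fl/fl 3, 4 without Δ/Δ 1, 8 without Δ/Δ 3, 22 without fl/fl 2 and 23 without Δ/Δ 4. The share of all genes higher at these thresholds was 1.57% with all arrays. It was 1.12% without fl/fl 1, 2.03% without fl/fl 2 and 1.29% without fl/fl 3. Without Δ/Δ 1, 2, 3 and 4 it was 1.17%, 1.57%, 1.42% and 1.80%. Arrays did not overlap in 30 genes without fl/fl 2 and in 28 without Δ/Δ 4, in place of 12. Fewer arrays make such separation easier in any gene, and the share over all genes is not given for these settings. The median log2 fold change moved less, between 0.38 without Δ/Δ 1 and 0.59 without Δ/Δ 4. Without both fl/fl 1 and Δ/Δ 3 it was 0.36, and 3 genes passed the thresholds of the study.

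**Figure D4:**
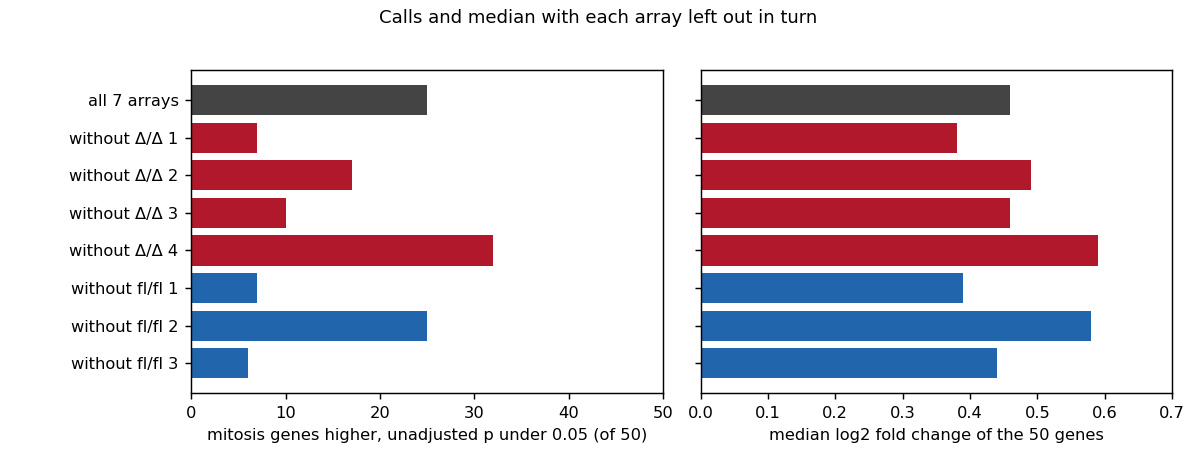
Number of mitosis genes higher at an unadjusted limma p under 0.05 (left, of 50) and their median log2 fold change (right) with all 7 arrays and with each array left out, red for Cebpa Δ/Δ and blue for Cebpa fl/fl arrays. The count is 25 with all arrays and lies between 6 and 32 otherwise, while the median stays between 0.38 and 0.59.

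Related gene lists were read beside the 50 genes. Of 73 other mitosis genes, 3 were higher at the thresholds of the study (4.11%), against 1.57% of all genes and 2.36% of those above the median level. These were the centromere gene Cenpp (0.83, SE 0.26), Sgo1, the shugoshin that protects centromeric cohesion (0.70, SE 0.27), and the spindle gene Dlgap5 (0.59, SE 0.21). Another 4 of the 73, Nek2 (0.58, SE 0.14), Cks1b (0.47, SE 0.15), Ccnf (0.42, SE 0.16) and Smc3 (0.26, SE 0.10), passed an unadjusted p under 0.05 and were named after their values were seen. That made 7 in all (9.59%), against 4.40% of all genes and 6.31% of those above the median level. None of the 73 was lower at an unadjusted p under 0.05 (0, against 3.08% of all genes). A log2 fold change above 0 was seen in 59 of them (80.8%), against 49.7% of all genes. The median of the 73 was 0.19, below that of the 50 genes. Without fl/fl 1 none of the 73 passed the thresholds of the study, and without Δ/Δ 4 6 did. Of the 43 measured DNA replication genes, which act in S phase, 0 met the thresholds of the study and 3 (6.98%) were higher at an unadjusted p under 0.05. All 43 lay above the median level, where 6.31% of genes were higher at that p, so this share was near the background. Still, 36 of the 43 (83.7%) had a log2 fold change above 0, against 49.7% of all genes. The median of the 43 was 0.14. This median was 0.06 without fl/fl 3 or without Δ/Δ 1 and 0.24 without Δ/Δ 4. The smallest p-values there were those of Dut, a dUTPase (0.38, SE 0.14), and Gins4, a subunit of the replicative helicase (0.38, SE 0.15), and the other one that passed was Rfc4, a subunit of the clamp loader (0.55, SE 0.22), also named after its values were seen. Replication scores were 0.32, -0.07, 0.22 and -0.17 in Δ/Δ 1 to 4, against 0.02, 0.00 and -0.31 in fl/fl 1 to 3, so fl/fl 1, the lowest array for mitosis genes, was not low for replication genes. Of 11 DREAM and MuvB genes, 0 passed an unadjusted p under 0.05 (median 0.12), with Tfdp2 (0.17, SE 0.08) and E2f4 (0.28, SE 0.14) the smallest p-values. Of 6 CDK inhibitor genes 0 passed (median 0.14), with Cdkn2d at 0.29 (SE 0.12) and Cdkn1c, which encodes p57 and is known for HSC quiescence, at -0.23 (SE 0.17).

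Markers of some other cell types also differed between the genotypes. Over all genes 1.57% were higher and 0.617% lower at the thresholds of the study. All 12 measured erythroid markers were higher in Cebpa Δ/Δ HSCs at the thresholds of the study, with a median log2 fold change of 2.15 and scores of 1.55, 0.49, 1.20 and 0.47 in Δ/Δ 1 to 4, against -1.62, -0.59 and -1.50 in fl/fl 1 to 3. Within each genotype the arrays stood in the same order by this score as by the mitosis score. That order rests on few arrays and on close values, 0.49 and 0.47 in Δ/Δ 2 and Δ/Δ 4 and -1.62 and -1.50 in fl/fl 1 and fl/fl 3. Of 12 neutrophil markers 10 were lower (median -2.80), at -1.57, -1.48, -0.71 and -1.22 in Δ/Δ 1 to 4, against 1.72, 2.58 and 0.69 in fl/fl 1 to 3, an order that differs from that of the mitosis genes in both genotypes. Macrophage markers scored 0.93, -0.10, 0.70 and 0.15 in Δ/Δ 1 to 4, against -0.61, -0.49 and -0.58 in fl/fl 1 to 3, with 3 of 7 higher at the thresholds of the study. Early lymphoid markers scored 0.42, 0.34, 0.61 and 0.12 in Δ/Δ 1 to 4, against -0.46, -0.42 and -0.61 in fl/fl 1 to 3, with 3 of 9 higher (Dntt, Il7r and Cd7). The median log2 fold change of the 9 was only 0.19, with 6 of them above 0. Only 2 of the 9 lay above the median gene. Of 5 megakaryocyte markers 0 passed an unadjusted p under 0.05 (median 0.20). Of 6 mature B and T cell markers, all below the median gene, 1 passed it and 0 met the thresholds of the study (median 0.27). Of 3 multipotent progenitor markers 2 (Cd48 and Flt3) were higher at the thresholds of the study. Cd48, whose protein the sort excludes, measured 8.15, 7.70, 8.82 and 6.40 in Δ/Δ 1 to 4, against 4.82, 5.61 and 4.62 in fl/fl 1 to 3. As in the mitosis score, Δ/Δ 4 was the lowest and fl/fl 2 the highest of their genotype. Unlike in that score, Δ/Δ 3 lay above Δ/Δ 1 and fl/fl 1 above fl/fl 3. Flt3, a cytokine receptor, measured 7.05, 7.68, 7.09 and 7.26 in Δ/Δ 1 to 4, against 6.16, 6.66 and 6.93 in fl/fl 1 to 3 (0.69, SE 0.23), with Δ/Δ 1 the lowest and fl/fl 3 the highest, an order unlike that of the mitosis genes. Cd34, a surface sialomucin, had -0.25 (SE 0.21) and did not pass. The 9 measured HSC markers all lay above the median gene, at mean log2 levels of 6.46 to 10.35. Their median log2 fold change was -0.29, 0 of 9 passed an unadjusted p under 0.05, and their scores were -0.27, 0.17, -0.59 and 0.19 in Δ/Δ 1 to 4, against 0.09, 0.15 and 0.27 in fl/fl 1 to 3. Δ/Δ 1 and Δ/Δ 3, the highest arrays for mitosis genes, were thus the lowest for HSC markers. Among fl/fl arrays, fl/fl 1 was the lowest for both HSC markers (0.09) and mitosis genes (-0.48). The part of other cells in the higher mitosis genes was not tested.

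**Figure D5:**
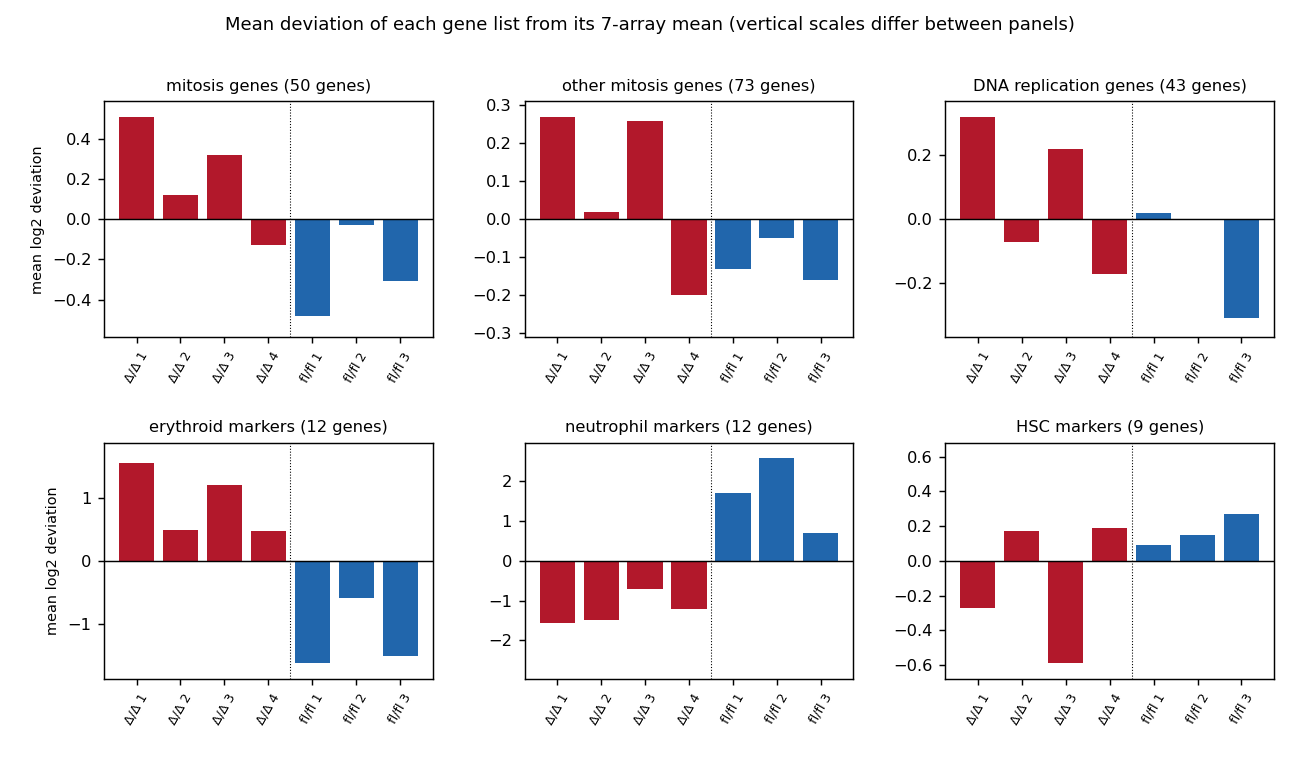
Scores of the 50 mitosis genes and of 5 other lists in each array (Cebpa Δ/Δ in red, Cebpa fl/fl in blue), as the mean log2 difference from each gene's 7-array mean; vertical scales differ between panels. Δ/Δ 1 and Δ/Δ 3 are high and fl/fl 1 and fl/fl 3 low for both mitosis genes (0.51 and 0.32, against -0.48 and -0.31) and erythroid markers (1.55 and 1.20, against -1.62 and -1.50).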

How the data were processed

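HSCs were sorted from bone marrow, their RNA was amplified, and the amplified cDNA was labelled with biotin. It was measured on Affymetrix Mouse Gene ST arrays, 4 of Cebpa flox/flox;Mx1Cre and 3 of Cebpa flox/flox mice. The authors deposited RMA intensity values (background correction, quantile normalization, probe summary). Quantile normalization sets the probe intensities of all arrays to 1 distribution before the summary, and the summarized values had array medians between 46.2 and 50.4. RMA and affy are named in the submitters' processing notes, with no version. The deposited intensities were linear (1.51 to 9840), although log2 values had been assumed when the test was planned, so log2 was taken of each intensity with no pseudocount. Precision is limited by the number of arrays. Of 35556 probe sets, 21789 were annotated to 1 gene, 1621 to several and 12146 were unnamed here. This gave 19938 genes, and for the 999 genes with several probe sets the one with the highest mean was used.

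Genotypes were compared across all genes with lmFit and eBayes (limma 3.58.1, R 4.3.3), genotype as the only term, with Benjamini-Hochberg adjustment over all genes. The study's thresholds (unadjusted p under 0.05, over 1.5-fold) were read from limma's p. Single values were also compared by an exact two-sided permutation test over 35 splits of the 7 arrays (smallest p 0.0286). The fit was tested on simulated data. Members and lists were chosen with earlier results of these data known, so lists are described by counts and medians beside those of all genes, with no test of a list. Values in every array are given for genes with an unadjusted p under 0.05 or arrays that did not overlap, for the 2 smallest p-values of each role, and for Mki67, Cdk1, Plk1, Foxm1 and Top2a. From the other mitosis genes, those past the study's thresholds were named, up to 4 a direction, and from the DNA replication, DREAM and MuvB, and CDK inhibitor lists the 2 with the smallest p. Nuf2, Cd48 and Flt3 were given by array after their values were seen. Promoters came from RefSeq (GRCm38.p6) and were matched by symbol. Alternatives were other normalizations, a floor at the percentile 25, genes above the median level, mean of probe sets, array weights, variance without moderation, the replicate number as a block, and arrays left out.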

Additional observations from a re-analysis of the deposited data

Results flagged for a closer look

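Dixon's ratio was applied to the 4 Cebpa Δ/Δ arrays for 58 values, those of the mitosis genes and the scores of gene lists, against its 95% critical value, which chance passes in about 1 of 20 groups. In 4 genes 1 array lay far from the others, in each case above them. Smc4 measured 9.59 in Δ/Δ 1 and 9.32 to 9.36 in the other Δ/Δ arrays (ratio 0.841). Mki67 measured 9.90 in Δ/Δ 1 and 9.36 to 9.44 in the others (0.849). Kif20a measured 7.61 in Δ/Δ 1 and 6.97 to 7.02 in the others (0.93). Pttg1 measured 8.67 in Δ/Δ 3 and 8.16 to 8.20 in the others (0.93).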

How the results depend on the processing

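The median log2 fold change of the 50 mitosis genes stayed between 0.36 and 0.59 under all 16 alternatives, and 0 mitosis genes were lower at the thresholds of the study under any of them. Counts of genes depended on the alternative. At the thresholds of the study 13 mitosis genes were higher with all arrays, 7 with the variance not moderated, 3 without both fl/fl 1 and Δ/Δ 3, and 4 to 23 with 1 array left out. The shares of all genes were 1.57%, 1.25%, 0.848% and 1.12% to 2.03%, in the same order. At an unadjusted p under 0.05 there were 25 with all arrays, 9 with the variance not moderated, 4 without both of those arrays, and 6 to 32 with 1 array left out. The share of all genes at that p is given only for all arrays (4.40%). Arrays did not overlap in 12 genes with all arrays and in 12 to 30 with 1 array left out, where fewer arrays make separation easier. The other mitosis genes at the thresholds of the study numbered 3 with all arrays, 1 with the variance not moderated, 1 without both arrays, and 0 to 6 with 1 array left out. The CHR share was 26.7% in the 100 bases before the start, which leaves out matches after it. Apart from these constructions the cause was not tested.

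Genes near 0 changed sign. Without both arrays Foxm1 was at -0.02, Ttk at 0.00 on the negative side and Racgap1 at -0.10, and with array weights Racgap1 was at -0.01. With 1 array left out the log2 fold change ran between -0.01 and 0.36 in Foxm1, -0.25 and 0.23 in Nuf2, -0.18 and 0.13 in Mad2l1, -0.13 and 0.31 in Ttk, -0.03 and 0.24 in Aurka, -0.05 and 0.13 in Ncapd2, -0.14 and 0.09 in Kif23, and -0.11 and 0.14 in Racgap1.

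The labels do not say whether equal replicate numbers pair the arrays. Correlations of deviations from the genotype means were -0.02, 0.10 and -0.18 for numbers 1, 2 and 3. For unlike numbers they ran from -0.20 to 0.33. With so few arrays these values cannot show whether a pairing existed. With the replicate block, in which Δ/Δ 4 has no partner and adds nothing, 13 mitosis genes were higher at an unadjusted p under 0.05. At the thresholds of the study 5 other mitosis genes were higher, and 1.46% of all genes. The median of the 50 mitosis genes was 0.59. Nuf2 was then at 0.23, Mad2l1 at 0.13 and Kif23 at 0.09.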
